A study of Mus musculus with 4 samples.

Results

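Among thymic cells of BALB/c and B6 mice that were sorted as invariant natural killer T (iNKT) cells, 62 cells carried an early, Cd24a-high profile. They were 0.393% of the 15767 cells kept from 4 libraries, with 12 and 18 cells in BALB/c 1 and 2 and 11 and 21 in B6 1 and 2. The cells were chosen by raw counts of unique molecular identifiers (UMIs, which count each tagged RNA molecule once), under the working name of early iNKT0-like cells. A cell was taken with at least 2 UMIs of Cd24a and at least 4 UMIs of Lef1, Sox4, Itm2a and Egr2 together. It could hold no more than 1 UMI of Nkg7, Klrd1, Il2rb and Xcl1 together, fewer than 4 UMIs over 6 proliferation genes and fewer than 6 UMIs over 7 iNKT17 genes. A last clause left out any cell with at least 2 UMIs of Cd8a and Cd8b1 together and at least 1 UMI of Rag1, Dntt, Arpp21 or Aqp11. The members were thus selected on measured levels, and every contrast of early cells with other cells is a description without a test. The strain contrast was not used in the choice.

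BALB/c was set against B6, both inbred mouse strains, with 2 libraries each. Live thymic cells of both were sorted and profiled in droplets with a 5' single-cell kit. No treatment is labelled. Nothing in the labels ties a library to its own mouse, so p-values measure the spread between these libraries, which may be technical. The libraries were unequal in size and processing, with 1896 and 1947 kept cells in BALB/c 1 and 2 against 2378 and 9546 in B6 1 and 2. B6 2 carries Cell Ranger 7.1.0 in its file header and the other libraries 6.0.0.

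iNKT cells are T cells that see lipids held by the CD1d molecule. In mice most carry an invariant T cell receptor (TCR) alpha chain built from Trav11 and Traj18, paired with a beta chain whose V segment is usually of the Trbv13 family, Trbv29 or Trbv1. They branch from CD4+ CD8+ thymocytes, which still express the recombinase genes Rag1 and Rag2. The earliest cells after selection by CD1d are CD24-high, have just received a strong TCR signal, and induce Egr2 and then Zbtb16 (PLZF, the transcription factor that gives iNKT cells their effector program). Conventional T cells pass through a CD24-high, recently signalled stage as well, with varied receptors.

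The alpha chain segments that define the invariant receptor are shown because they limit how the label can be checked in these counts. The last bases of the V segment exon are given 5′ to 3′, with capitals at bases that differ from Trav11 (GENCODE vM21 on GRCm38, the build also known as mm10). In Traj18 the capitals mark the codons of the Phe-Gly-Ala-Gly motif.
Trav11, chr14:53519303-53519859, plus strand, bases 223 to 342 of the transcript: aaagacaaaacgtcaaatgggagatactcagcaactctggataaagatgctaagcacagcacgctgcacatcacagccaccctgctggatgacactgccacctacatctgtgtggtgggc
Trav11n, chr14:53135122-53135678, plus strand, annotated as a pseudogene, the same bases: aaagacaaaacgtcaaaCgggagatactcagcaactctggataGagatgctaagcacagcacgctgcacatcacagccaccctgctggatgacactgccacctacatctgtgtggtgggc
Traj18, chr14:54200777-54200842, plus strand: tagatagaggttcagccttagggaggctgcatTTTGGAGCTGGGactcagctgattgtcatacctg
Trav11d (chr14:52824357-52824912, plus strand) was identical to Trav11 over all 342 bases compared, and Trav11n differed from it at 8. A read within these bases therefore matches Trav11 and Trav11d equally well, and the sources used here do not say how such reads were counted.

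Beta chain use in the early cells went against the label. A V segment was called as the most abundant one of a cell, with at least 2 UMIs and no tie. It was called in 54 of 62 early cells, of which 18 used Trbv13, Trbv29 or Trbv1 (33.3%, exact 95% binomial interval 21.1 to 47.5%). In the other kept cells these segments made up 12991 of 14277 calls (91.0%, interval 90.5 to 91.5%). In early cells they made up 11.1% of calls in BALB/c 1 and 35.3% in BALB/c 2, against 18.2% in B6 1 and 52.9% in B6 2. The other kept cells of the same libraries stood at 87.9% and 85.4% in BALB/c, against 89.0% and 93.3% in B6, so each library showed the gap. The Trbv13 family alone was called in 12 of the 54 early cells (22.2%, interval 12.04 to 35.6%), and 65.8% of the other kept cells with a call used it. The most frequent segments among early cells were Trbv13-2 in 9 cells and Trbv3 in 6, and 18 different segments were seen. These intervals cover counting error only.

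Cells left out by the last clause had a like share. The 75 cells that met every other part of the rule, called left-out cells here, used Trbv13, Trbv29 or Trbv1 in 20 of 70 calls (28.6%, interval 18.4 to 40.6%). All 986 kept cells that met the clause, with or without Cd24a, did so in 333 of 868 (38.4%, interval 35.1 to 41.7%). Both sets are part of the other kept cells, and carry the Cd8 and Rag1-type transcripts of CD4+ CD8+ thymocytes. The 3 intervals overlap each other, and none reaches the share in the other kept cells.

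**Figure D1:**
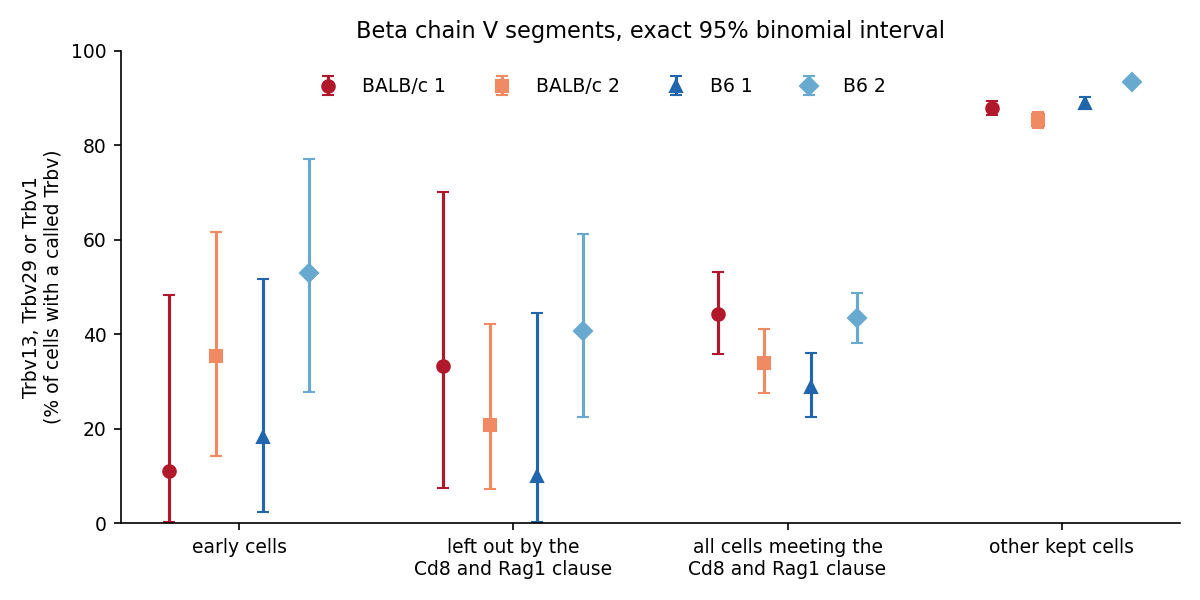
Share of cells with a called Trbv segment that used Trbv13, Trbv29 or Trbv1 (percent, vertical axis) in 4 classes of cells, with 1 point per library and exact 95% binomial intervals. Early cells run between 11.1% and 52.9%, and the other kept cells between 85.4% and 93.3%.

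Alpha chain counts were a weaker check. A Trav segment was called in 40 of 62 early cells (64.5%, interval 51.3 to 76.3%), spread over 27 different segments, of which Trav5-4 with 4 cells was the most frequent. None of the 40 was Trav11, Trav11d or Trav11n, which allows a share of up to 8.81% by the exact interval. Among the other kept cells these segments made up 308 of 4147 calls (7.43%), which lies under that limit. With calls from 1 UMI they made up 0 of 54 early calls, which allows up to 6.60%, and 951 of 7467 calls in the other kept cells (12.7%, interval 11.99 to 13.5%), which lies above it. The classes differ in depth, so the 1-UMI calls compare cells of unequal depth. A Trav segment of any kind was called in 26.4% of the other kept cells, although their cells were deeper. In left-out cells it was called in 57.3%. Traj18 was seen in 3 of 62 early cells, with 1 UMI each, and in 19.0% of the other kept cells. With each cell thinned to 2000 UMIs the shares were 3 of 58 early cells (5.17%) and 808 of 14903 other kept cells (5.42%), while 0 of 73 left-out cells had one, which allows up to 4.93% by the exact interval. Of the 3 early cells with Traj18, 2 used Trbv13-2 and 1 used Trbv3 with Trav5-4. Another early cell, of BALB/c 2, held 1 UMI of Trav11, Trav11d or Trav11n, with Trbv29 and Trav4-3 as its called segments. Because of the beta chains the cells are called early cells below, by their rule, with no claim that they are iNKT cells.

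Early cells were shallow, and many sat at a threshold of the rule. Their median UMI counts were 3650.5 and 4438 in BALB/c 1 and 2, against 3999 and 3502 in B6 1 and 2. Medians over the kept cells of the same libraries were 11044.5 and 9230 in BALB/c, against 7056 and 7058 in B6, so early cells held 33.1% of the depth of a typical cell in BALB/c 1 and 48.1 to 56.7% in the rest. Left-out cells had medians of 2630 to 3334.5 UMIs. Median mitochondrial shares were 1.499 to 1.99% in early cells and 1.76 to 2.18% in the other kept cells. Of the 62 cells, 26 had exactly 2 UMIs of Cd24a, and 71 cells with 1 UMI and 1018 with none met every other clause. At the other edges, 4 members had the minimum of 4 UMIs of Lef1, Sox4, Itm2a and Egr2 and 8 had 1 UMI of the cytotoxic genes. The highest Cd24a count was 39. Kept cells of different libraries shared 4 to 33 barcodes per pair of libraries, and 1 early cell of B6 1 had the barcode of a B6 2 cell that was not a member.

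A few members stood apart, and they were found after their values had been seen. One cell of BALB/c 1 had 17473 UMIs with 48 of Dntt and 13 of Trdc, the constant segment of the TCR delta chain. One cell of BALB/c 2 had 10763 UMIs with 17 of Cd79a, a B cell receptor component, and 0 of Cd3e. One cell of B6 2 had 5573 UMIs with 6 of Dntt, 5 of Rag1 and 8 of Tcrg-C1. The results were recomputed without these 3 cells. Scrublet, which scores doublets, marked 1 of the 62 cells, in B6 2.

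The share of early cells was higher in both BALB/c libraries than in both B6 libraries, but 4 libraries cannot carry this past a threshold. Early cells were 0.633% of kept cells in BALB/c 1 (exact 95% binomial interval 0.327 to 1.10%) and 0.924% in BALB/c 2 (0.549 to 1.46%). They were 0.463% in B6 1 (0.231 to 0.826%) and 0.220% in B6 2 (0.136 to 0.336%). The mean was 0.779 ± 0.206% in BALB/c libraries and 0.341 ± 0.172% in B6 libraries (n = 2 each, SD), a difference of 0.437 points (exact two-sided permutation p = 0.333, the smallest this design allows). Counts of UMIs chose the cells and BALB/c libraries were deeper, so the rule was also applied after thinning each cell to 3000 UMIs. The difference was then 0.250 points, from 0.358 and 0.616% in BALB/c 1 and 2 against 0.297 and 0.177% in B6 1 and 2. The direction was the same and the strains still did not overlap. This order was not particular to early cells. BALB/c 1 held 9 left-out cells among its 1896 kept, and BALB/c 2 held 25 among 1947. B6 1 held 10 among 2378, and B6 2 held 31 among 9546. Cells that met the last clause, with or without Cd24a, numbered 163, 219, 204 and 400 in the same libraries. Their share followed the same order, with BALB/c 1 and B6 1 nearly level. The share of the Trbv13 family among called early cells was 0 of 9 and 23.5% in BALB/c 1 and 2, against 18.2% and 35.3% in B6 1 and 2, with overlapping strains (difference -15.0 points, exact two-sided permutation p = 0.667). The share of Trav11 among early cells with a called Trav was 0 in each library, where the exact intervals reach up to 26.5 to 33.6%.

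**Figure D2:**
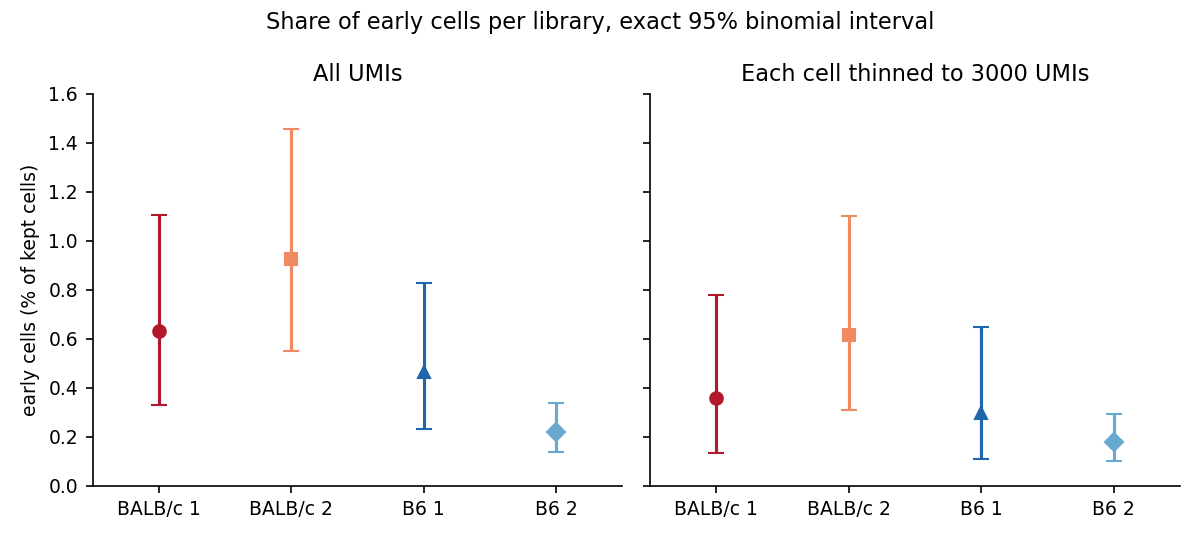
Early cells as a percent of kept cells (vertical axis) in each library, from all UMIs (left) and after thinning every cell to 3000 UMIs (right), with exact 95% binomial intervals. BALB/c libraries lie at 0.633 and 0.924% and B6 libraries at 0.463 and 0.220% before thinning, and the interval of BALB/c 2 lies clear of that of B6 2 while the other pairs between strains overlap.

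The early cells carried high levels of the genes that T cells switch on within minutes to hours of TCR signalling. Levels are CPM, the UMIs of a gene as parts of 1e+06 of the UMIs summed over the cells of a class in a library. A single UMI in early cells equals 11.9 to 23.7 CPM, so low values are coarse. Nr4a1 (Nur77, an orphan nuclear receptor induced by TCR signals) had 2003 and 972 CPM in early cells of BALB/c 1 and 2 and 2161 and 1321 in those of B6 1 and 2. The left-out cells had 0, 200, 272 and 184 CPM in the same libraries, and the other kept cells 42.5, 59.1, 18.7 and 21.1. All 4 early values lay above all values of both other classes. Nr4a3, of the same family, had 241, 699, 309 and 274 CPM in early cells, against 3.17 to 9.47 CPM in the other kept cells. It came from 19 early cells.

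Egr1, an immediate early zinc finger factor, had 482 and 451 CPM in early cells of BALB/c 1 and 2 and 1211 and 881 in those of B6 1 and 2, against 69.9 to 127 CPM in the other kept cells. Cd69 (chr6:129267325-129275436, GRCm38), which holds thymocytes in the thymus by blocking S1pr1, had 334, 830, 617 and 405 CPM in early cells, with BALB/c 1 and 2 given before B6 1 and 2 here and in every run of 4 values below. The left-out cells had 58.1 to 188 CPM of Cd69 and the other kept cells 32.2 to 52.4. Per cell, with each cell thinned to 2000 UMIs, Cd69 was seen in 32 of 58 early cells (55.2%, interval 41.5 to 68.3%), in 12.3% of left-out cells and in 9.47% of the other kept cells. Without thinning it was seen in 44 of 62 early cells. Nr4a1 was seen in the same number of thinned early cells, and in 10.96% of left-out cells and 3.08% of the other kept cells. Most members held such transcripts without thinning: 50 of the 62 had a UMI of Cd69 or Egr1, and 28 had both. Neither gene is in the rule, but the rule counts Egr2, another TCR-induced gene. These counts are therefore not independent of the choice of cells.

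Of the list of 20 TCR-induced genes, 17 reached a mean of 50 CPM in early or other kept cells, and 10 of these were over 2-fold higher in early cells in each library. Over all 4219 genes at that level, 8.13% were so, and 3.63% were over 2-fold lower in each library. Both shares are the background for each list set against the other kept cells below, save where the rule itself shifts a list. The 10 were Egr1, Egr2 (itself in the rule), Nr4a1, Nr4a3, Cd69, Cd5, Cd6, Dusp5, Nfkbid and Tnfrsf9, and none of the list was lower. The list's median log2 ratio was 2.10, and that of all genes was 0.52. Against left-out cells, which were of similar depth, 6 of the list's 17 genes were over 2-fold higher in each library, namely Egr2, Nr4a1, Cd69, Nab2, Myc and Tnfrsf9, where 0.910% of 4505 genes were. Cd5, a surface inhibitor whose level follows TCR signal strength, had 1317, 1731, 2018 and 1964 CPM in early cells and 233, 542, 1414 and 578 CPM in left-out cells, lower in each library.

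The promoters of Nr4a1 and Nr4a3 are shown because these related, TCR-induced genes were among the 4 highest by the naming rule described below, and both hold the cAMP response half-site. They run from 250 bases before to 50 after the start of the gene (RefSeq, GRCm38.p6). Capitals mark TGACG or its reverse complement CGTCA, searched on both strands with overlaps allowed.
Nr4a1, chr15:101266596-101266895, plus strand: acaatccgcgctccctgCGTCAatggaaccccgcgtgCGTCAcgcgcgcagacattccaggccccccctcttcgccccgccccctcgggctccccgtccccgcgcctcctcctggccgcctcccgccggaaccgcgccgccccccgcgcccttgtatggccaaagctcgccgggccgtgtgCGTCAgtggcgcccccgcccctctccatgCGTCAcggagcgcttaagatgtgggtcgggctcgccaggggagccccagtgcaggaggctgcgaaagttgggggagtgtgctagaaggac
Nr4a3, chr4:48045055-48045354, plus strand: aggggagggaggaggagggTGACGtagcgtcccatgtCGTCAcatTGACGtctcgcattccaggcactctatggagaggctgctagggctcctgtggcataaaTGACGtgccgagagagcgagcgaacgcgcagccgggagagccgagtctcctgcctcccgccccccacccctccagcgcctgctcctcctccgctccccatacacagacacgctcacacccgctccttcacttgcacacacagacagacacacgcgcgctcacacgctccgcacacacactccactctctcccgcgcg
Each holds 4 matches. At least 1 match was found in 20.8% of 32851 promoters of this length, and at least 4 in 0.231%. A match describes the letters only.

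Genes of cell death and survival were mixed, with the death inducer Bcl2l11 among those that were high. Bcl2l11, which encodes the pro-apoptotic BIM that is induced when thymocytes are strongly signalled, had 427 and 308 CPM in early cells of BALB/c 1 and 2 and 427 and 381 CPM in those of B6 1 and 2. The left-out cells had 29.1, 70.6, 190 and 36.7 CPM, and the other kept cells 13.01, 20.4, 28.5 and 29.8. Neither of these classes overlapped the early cells. Bcl2, the anti-apoptotic counterpart, had 111, 190, 285 and 655 CPM in early cells, against 36.5, 62.5, 148 and 188 CPM in the other kept cells. Within each library it was higher in early cells, while the classes overlapped across libraries. Of 12 survival and death genes at 50 CPM, Bcl2, Bcl2l11 and Fas were over 2-fold higher in each library and Gimap3 and Gimap4 over 2-fold lower. Fas, a death receptor, had 55.6 to 142 CPM in early cells and 118 to 217 CPM in left-out cells.

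Transcription factors of the early T lineage were high. Ikzf2 (Helios, an Ikaros family factor) had 1020, 1043, 1449 and 2643 CPM in early cells. It had 116, 377, 707 and 762 CPM in left-out cells and 67.4 to 135 CPM in the other kept cells, with no overlap. Tox, a factor needed for the CD4 lineage and iNKT cells, had 593 to 2845 CPM in early cells, 271 to 1175 in left-out cells and 96.8 to 333 in the other kept cells. Hivep3, a zinc finger factor known to be needed in early iNKT development, had 556 and 593 CPM in early cells of BALB/c 1 and 2 and 499 and 488 CPM in those of B6 1 and 2. Left-out cells had 0, 82.4, 0 and 229 CPM and the other kept cells 46.3 to 114. Hivep3 was seen in 28 of 58 thinned early cells (48.3%), against 9.59% of left-out and 10.0% of the other kept cells. Of 18 early T-lineage factors at 50 CPM, 10 were over 2-fold higher in each library than in the other kept cells, 2 of which (Lef1 and Sox4) are in the rule. The other 8 were Tox, Bach2, Hivep3, Tcf12, Myb, Ikzf1, Tcf7 and Satb1. Runx3 and Id2, which mark effector differentiation, were over 2-fold lower. Against left-out cells 1 of 17, Hivep3, was over 2-fold higher in each library, and 1, the E protein gene Tcf12, over 2-fold lower.

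PLZF, the defining iNKT factor, was nearly absent. Zbtb16 (chr9:48654297-48836222, GRCm38) had 2 UMIs in all early cells together, in 2 cells of B6 2, and 0 in the other 3 libraries. The other kept cells had 400 and 325 CPM in BALB/c 1 and 2 and 167 and 379 CPM in B6 1 and 2. With each cell thinned to 2000 UMIs it was seen in 1 of 58 early cells (1.72%, interval 0.0436 to 9.24%) and in 33.3% of the other kept cells. In all 809 thinned cells that met the Cd8 and Rag1 clause it was seen in 4.70%. The early value was thus at the level of a class that should lack the gene. Il4, the signature iNKT2 cytokine, had 0 UMIs in early cells. Set against a floor of 3 UMIs over all early cells it was at least 12.3-fold lower than in the other kept cells.

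**Figure D3:**
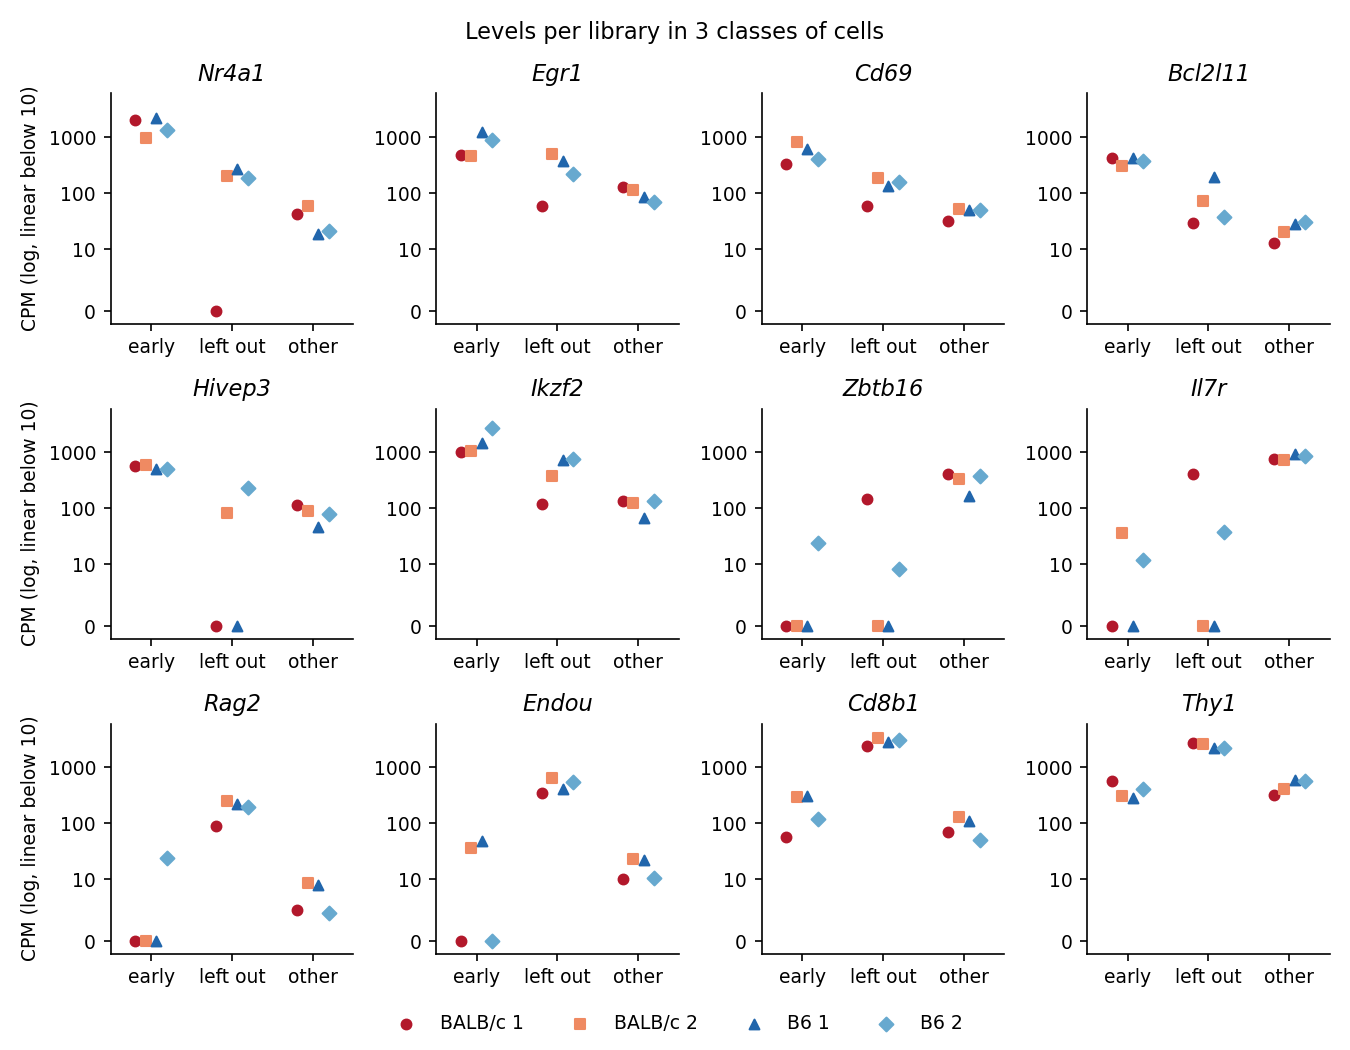
Levels of 12 genes (CPM, log axis that is linear below 10) in early cells, left-out cells and other kept cells, with 1 point per library. Nr4a1, Bcl2l11 and Ikzf2 lie highest in early cells of every library, and Zbtb16 and Il7r lie lowest or near 0. Rag2, Endou, Cd8b1 and Thy1 set the left-out cells apart, but Cd8b1 is in the clause that chose them. Genes found in the same cells as the clause genes can differ through that choice too.

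Surface and homing genes gave an immature picture with mixed coreceptors. By raw UMIs 23 early cells had Cd8a or Cd8b1 without Cd4, 5 had Cd4 without Cd8, 7 had both and 27 had neither, and the rule limits Cd8 in cells with Rag1-type transcripts. Ccr9, the thymic chemokine receptor of immature thymocytes, had 593, 391, 997 and 464 CPM in early cells and 48.1 to 77.7 CPM in the other kept cells. Left-out cells were higher still at 942 to 1359 CPM. Among the homing genes at 50 CPM, Ccr9 and Cd69 were over 2-fold higher in each library and Selplg, Klf2, Cxcr6, Ccr2, Itgae, Itgb7 and Cxcr3 over 2-fold lower. Ccr4 had 190 CPM in BALB/c 2 and 190 and 214 CPM in B6 1 and 2, but 55.6 CPM in BALB/c 1. Klf2, the factor that drives thymic exit, had 4 UMIs in early cells, and its target S1pr1 had 0. Of 9 SLAM receptor and adaptor genes, which pass the second signal for iNKT selection, 7 reached 50 CPM. Sh2d1a (SAP) and Cd84 were over 2-fold higher in each library. Sh2d1a had 705, 486, 997 and 560 CPM in early cells and 157 to 210 CPM in the other kept cells, but 707 to 979 CPM in left-out cells.

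Effector genes of mature subsets were low. Of 15 iNKT1 genes at 50 CPM in either class, 11 were over 2-fold lower in each library and none higher. Over all 4219 genes at that level 3.63% were so lower. Xcl1, Klrd1, Nkg7 and Il2rb, 4 of the 16 listed, are limited by the rule and are among the 11. The lower genes outside the rule were Fcer1g, Hopx, Klrk1, Klrc1, Ccl5, Gzmb and Cxcr3. The summed level of the iNKT1 list was 55.6 to 214 CPM in early cells and 1035 to 4409 CPM in the other kept cells. This sum includes the 4 genes that the rule limits, so part of the gap is built in. Outside the rule, Ccl5, a chemokine of cytotoxic cells, had 0 UMIs in early cells, at least 28.7-fold lower by the same floor. Of 9 iNKT2 genes, Icos, Izumo1r, Zbtb16 and Il4 were over 2-fold lower in each library and Hivep3 over 2-fold higher. Il7r, the receptor for the survival cytokine IL-7, had 4 UMIs in 2 early cells, against 731 to 937 CPM in the other kept cells. Of 14 listed iNKT17 genes 9 had 0 UMIs, Il17a among them, and 7 of the 14 are in the rule. Of 23 interferon response genes at 50 CPM, 8 were over 2-fold lower in each library, against the 3.63% over all genes, and none higher. Proliferation genes are limited by the rule and are not read further.

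By the rule for named genes, the 15 highest and 15 lowest were those whose log2 ratio of early to other kept cells was largest in the least extreme library. In the library nearest to 0 the ratio was 3.10 to 5.89 for the 15 higher genes and -4.99 to -3.04 for the 15 lower ones. Beside those above, the high set held Trib1 (a regulator of protein degradation), Bcl6 (a transcriptional repressor of follicular helper T cells), Smo (the Hedgehog signal transducer), Gfi1 (a repressor in thymocytes), Il6st (gp130), Colq, Marcksl1, Cnn3, Ldhb, Basp1 and Ift80. Bcl6 had 148, 273, 309 and 238 CPM in early cells, against 7.40 to 16.5 CPM in the other kept cells. Cldn10 met the rule although it had 0 UMIs in both BALB/c libraries, where its ratio rests on the 0.5 UMI added to each sum. Early cells of B6 1 and 2 had 142 and 190 CPM of it. The low set held Cd7, S100a6, S100a4, Lgals3, Ctsw, Ahnak, Slfn1, Itgae, Il18r1, Igfbp4, Cxcr6 and Fam129a beside Ccl5, Il7r and Zbtb16. Lgals3, Ahnak, Slfn1, Il18r1 and Igfbp4 had 0 UMIs in early cells, and their bounds were at least 10.3-fold to at least 26.3-fold lower.

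**Figure D4:**
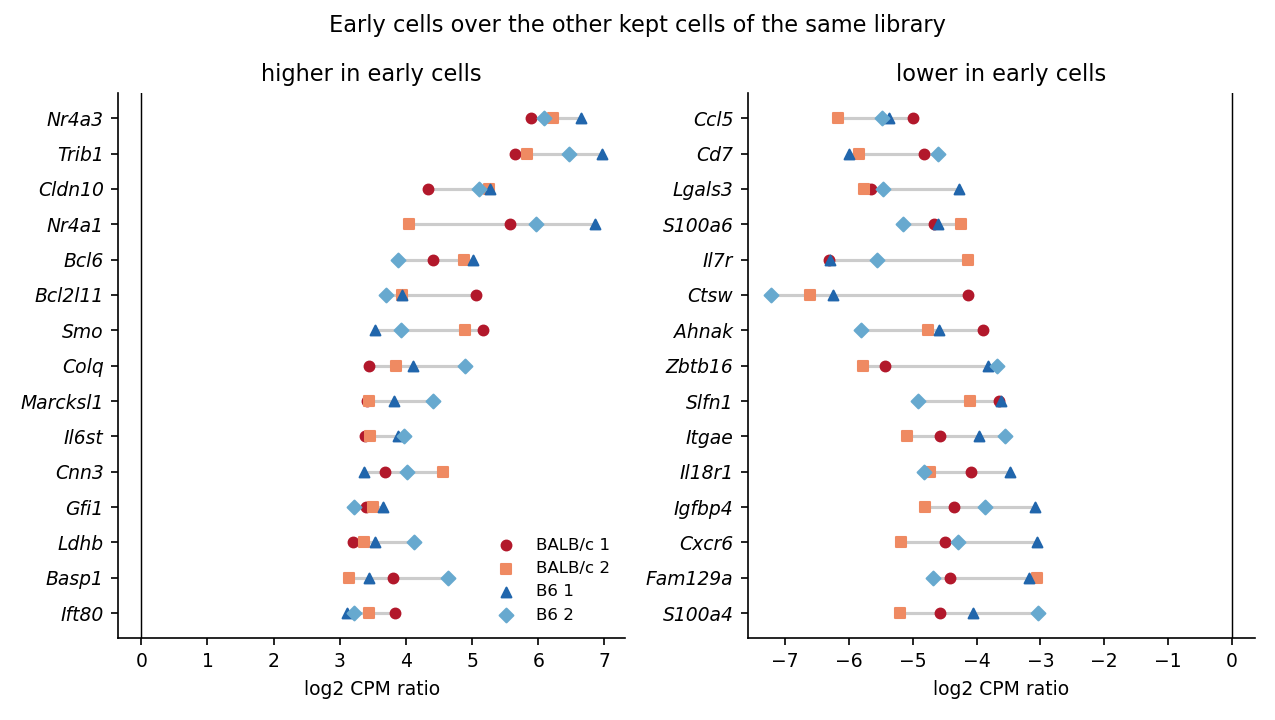
Log2 ratio of CPM in early cells over the other kept cells of the same library (horizontal axis) for the 15 genes highest and the 15 lowest by the naming rule, with 1 point per library. The higher genes lie at 3.10 or above in every library and the lower genes at -3.04 or below.

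Against left-out cells, genes of the CD4+ CD8+ stage were low in early cells. Of 12 genes of the list of double-positive thymocyte markers at 50 CPM, 9 were over 2-fold lower in each library, where 1.78% of 4505 genes were. Cd8a, Cd8b1, Rag1, Arpp21 and Aqp11 of them are in the clause that separates these 2 classes. The choice of cells lowers them in early cells, so the share over all genes is no yardstick for them. Rag2, Endou, Mns1 and Themis are not named in the rule. Genes found in the same cells as the clause genes can be lowered by the choice too, so the share is no yardstick for them either. Rag2, the second recombinase subunit, had 0 CPM in early cells of 3 libraries and 23.8 CPM in B6 2, against 87.2, 247, 217 and 193 CPM in left-out cells. Endou, a marker of CD4+ CD8+ thymocytes, had 0, 35.6, 47.5 and 0 CPM in early cells, against 349, 636, 408 and 551 CPM in left-out cells. Thy1, a surface glycoprotein of T cells, had 285 to 556 CPM in early cells and 2203 to 2733 CPM in left-out cells. Ctsl, a lysosomal protease, and Xrcc6 (Ku70, an end-joining factor used in recombination) were also in the low set. The high set was led by Nr4a1, Relb, Rilpl2, Myc, Tagap, Sept11, Nfatc1, Slc29a1 and Orai1. Nfatc1, the calcium-activated factor, had 371, 439, 380 and 524 CPM in early cells and 23.5 to 109 CPM in left-out cells. Orai1, the calcium channel upstream of it, had 119 to 403 CPM in early cells and 27.2 to 64.3 CPM in left-out cells. Relb, an NF-kappaB subunit, had 119 to 167 CPM in early cells and 0 to 27.2 CPM in left-out cells. These classes did not overlap for the 3 genes.

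Markers of other cell types were measured over the early cells. Of 5 gamma-delta T cell genes, Sox13 had 0 UMIs, and the summed level was 0 to 315 CPM in early cells and 291 to 645 CPM in the other kept cells. Of 5 B cell genes each had a UMI, with sums of 47.5 to 510 CPM in early cells and 62.3 to 222 CPM in the other kept cells, and all 17 Cd79a UMIs came from 1 cell. Of 5 myeloid genes, Itgax and Csf1r had 0 UMIs and the sums were 130 to 260 CPM in early and 126 to 246 CPM in other kept cells. Among 4 regulatory T cell genes, Foxp3 had 0 UMIs, and Ikzf2 gave most of the sum of 1043 to 2786 CPM. Il2ra had 17 UMIs in 2 cells. Of 5 naive conventional T cell genes, S1pr1 had 0 UMIs and the sums were 111 to 310 CPM in early and 319 to 403 CPM in other kept cells. The part of such cells in the results was not tested beyond the removal of the 3 cells named above. Neither the 12 glycolysis nor the 20 oxidative phosphorylation genes at 50 CPM were over 2-fold different in each library in early cells, and of 17 heat shock and dissociation genes Dnaja1 alone was, at 786 to 1826 CPM against 357 to 811 CPM in the other kept cells.

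Splitting the early cells by beta chain gave 18 cells with Trbv13, Trbv29 or Trbv1, 36 with another segment and 8 with no call, with median depths of 3760, 3981.5 and 3544 UMIs. Both called sets carried the signal genes. Cd69 was seen in 15 of the 18 and 26 of the 36 cells, and Nr4a1 in 13 and 19. Hivep3 was seen in 15 of the 18 cells with Trbv13, Trbv29 or Trbv1 and 21 of the 36 with another segment. Ccr9 was seen in 9 of the 18 and 27 of the 36 cells. Zbtb16 was seen in 1 cell of each. These counts pool libraries and are a description.

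Levels of the strain tests below are CPM scaled by TMM unless called plain, so they differ slightly from the plain CPM given above. Between strains, 1 of 1398 tested genes differed in early cells, or 0.0715%, by edgeR's quasi-likelihood test on the summed counts with Benjamini-Hochberg adjustment at 0.05. At an unadjusted p under 0.05 there were 89. The gene, Gm10260, had 63 and 78 UMIs in early cells of BALB/c 1 and 2 and 0 in those of B6 1 and 2, a level at least 42.9-fold higher in BALB/c by a floor of 3 UMIs over the B6 early cells (edgeR adjusted p = 0.0029). It is named here, with Rps18, after its values had been seen. Gm10260 (chr13:97760072-97760632) is annotated as a retrogene, and its transcript matches that of the ribosomal protein gene Rps18 (chr17:33951999-33956001) at 540 of 545 aligned bases. Reads of the pair can therefore be exchanged in counting. Rps18 averaged 257 ± 4.76 CPM in early cells of BALB/c and 995 ± 72.6 CPM in early cells of B6 (n = 2 each, SD; CPM scaled by TMM, log2 change -1.95, SE 0.32, edgeR adjusted p = 0.113). The same opposite pair stood in the other kept cells, where Gm10260 had 2712 and 2560 plain CPM in BALB/c 1 and 2 against 3.47 and 1.32 plain CPM in B6 1 and 2, and Rps18 had 497 and 570 TMM-scaled CPM in BALB/c against 3337 and 3312 in B6. Both genes are reported as uncertain for this reason. Gm10260 was not called in early cells chosen after thinning (log2 change 7.96, edgeR adjusted p = 0.117) or with the replicate block (9.04, edgeR adjusted p = 0.200); over all alternatives its adjusted p ranged from 2.74e-21 to 0.200. DESeq2 also called 1 gene, the same one, and 40 at an unadjusted p under 0.05. Without BALB/c 1, BALB/c 2, B6 1 or B6 2 the calls were 30, 21, 56 and 19, with 1 library left in a strain and 1453 to 2430 genes tested.

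No tested member of the 22 gene lists was called between strains by edgeR or DESeq2 in early cells. The filter on low counts left no gene to test in the iNKT1, iNKT17, gamma-delta T cell, B cell and naive conventional T cell lists. For these lists the strain test says nothing. The genes that gave the early cells their profile did not pass the test. Nr4a1 differed by -0.26 (log2, SE 0.36, edgeR adjusted p = 0.957), Cd69 by 0.24 (SE 0.45, adjusted p = 0.965) and Hivep3 by 0.18 (SE 0.31, adjusted p = 0.965) in edgeR's fit. A p that misses the threshold does not show that the strains are equal. Several T-lineage genes were lower in both BALB/c libraries without passing the test. Satb1, a chromatin organiser of thymocytes, had 1032 ± 154 CPM in BALB/c early cells and 2411 ± 708 CPM in B6 early cells (n = 2 each, SD; log2 change -1.24, SE 0.29, edgeR adjusted p = 0.389). Bach2, a repressor of effector differentiation, had 57.1 ± 47.3 CPM in BALB/c early cells and 286 ± 112 CPM in B6 (log2 change -2.51, SE 0.62, edgeR adjusted p = 0.389). Over all tested genes, 19.3% were higher in both BALB/c libraries than in both B6 libraries and 18.6% lower, so such separation is common.

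Stress genes were mostly higher in BALB/c. Of 13 tested heat shock and dissociation genes, 8 were higher and 3 lower in both BALB/c libraries than in both B6 libraries. Over all 1398 tested genes, 19.3% were so higher and 18.6% so lower. Of the 13, 7 had an unadjusted p under 0.05 by edgeR, as did 89 of the 1398 tested genes, and none of the 13 passed adjustment. Their median log2 change was 0.67, against -0.03 over all tested genes. Hspe1, a mitochondrial chaperonin subunit, had 706 ± 179 CPM in BALB/c early cells and 258 ± 25.9 CPM in B6 early cells (n = 2 each, SD; log2 change 1.45, SE 0.36, edgeR adjusted p = 0.389). The summed plain level of the 21 listed genes was 16951 and 14938 CPM in early cells of BALB/c 1 and 2, against 11754 and 10381 CPM in those of B6 1 and 2. In the other kept cells it was 10183 and 11609 CPM in BALB/c against 7604 and 8285 CPM in B6, so the same order stood outside the early cells. The part of handling in this was not tested. Myc had 313 ± 58.9 CPM in BALB/c early cells and 98.6 ± 74.4 CPM in B6 early cells (n = 2 each, SD; log2 change 1.51, SE 0.50, edgeR adjusted p = 0.504). Ctsl, named after its values had been seen, had 274 ± 131 CPM in BALB/c early cells and 41.9 ± 5.81 CPM in B6 early cells (log2 change 2.74, SE 0.61, edgeR adjusted p = 0.389). These rest on 10 and 31 UMIs in BALB/c 1 and 2 and 2 and 3 in B6 1 and 2. The other kept cells had the same direction, at 84.4 ± 35.1 CPM in BALB/c and 10.4 ± 4.26 CPM in B6 (log2 change 3.05, edgeR adjusted p = 0.0380).

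The strain difference in early cells differed from that in the other kept cells for 3 of 1398 genes, or 0.215%, by edgeR's interaction term, fitted to 8 sums with a block for each library. There were 99 at an unadjusted p under 0.05. All 3 were lower in BALB/c early cells and higher in the other kept cells of BALB/c. Pdcd1 (chr1:94038305-94052553, GRCm38) encodes the inhibitory receptor PD-1. It had 72.4 and 154 TMM-scaled CPM in early cells of BALB/c 1 and 2, against 322 and 366 CPM in those of B6 1 and 2. In the other kept cells it had 255 and 233 CPM in BALB/c against 78.5 and 90.8 CPM in B6. The difference of the log2 changes was -2.91 (SE 0.42, edgeR adjusted p = 0.0224).

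Cd247 encodes the zeta chain of the TCR complex. It had 525 and 414 TMM-scaled CPM in early cells of BALB/c 1 and 2, against 829 and 1046 CPM in those of B6 1 and 2. In the other kept cells it had 531 and 435 CPM in BALB/c against 167 and 252 CPM in B6, so the classes overlapped in BALB/c and lay apart in B6. The difference of the log2 changes was -2.09 (SE 0.30, edgeR adjusted p = 0.0224). For Egr1 the early cells had 471 and 450 TMM-scaled CPM in BALB/c 1 and 2 against 1174 and 933 CPM in B6 1 and 2, and the other kept cells 128 and 117 CPM in BALB/c against 84.6 and 67.4 CPM in B6. The difference was -1.77 (SE 0.27, edgeR adjusted p = 0.0231). In early cells alone none of the 3 passed the strain test (edgeR adjusted p = 0.389 for Egr1, 0.411 for Pdcd1 and 0.447 for Cd247). Egr1 lost its call without the 3 cells named above (edgeR adjusted p = 0.152) and without B6 1 (0.0542), while Pdcd1 and Cd247 were called in both. With Cd24a at 4 UMIs or more, or early cells chosen after thinning, 0 genes were called by edgeR, from 800 and 730 tested, with 23 and 58 at an unadjusted p under 0.05. Pdcd1 was not among the tested genes in either. Cd247 had differences of -1.77 and -1.74 there (edgeR adjusted p = 0.997 and 0.368), and Egr1 of -1.26 and -1.41 (edgeR adjusted p = 0.997 and 0.435). DESeq2 called 7. Without BALB/c 1, BALB/c 2, B6 1 or B6 2 edgeR called 30, 32, 4 and 11. The other kept cells are a mixture of mature subsets whose makeup may differ between strains, and its part in these differences was not tested. By the naming rule the next lowest p in the same direction belonged to Ikzf2 (-1.35, edgeR adjusted p = 0.127) and Tcf7, and in the other direction to Sh3bgrl3 (1.43, edgeR adjusted p = 0.0639), Cyba, Gimap1, Serinc3 and Myc, none of which passed.

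**Figure D5:**
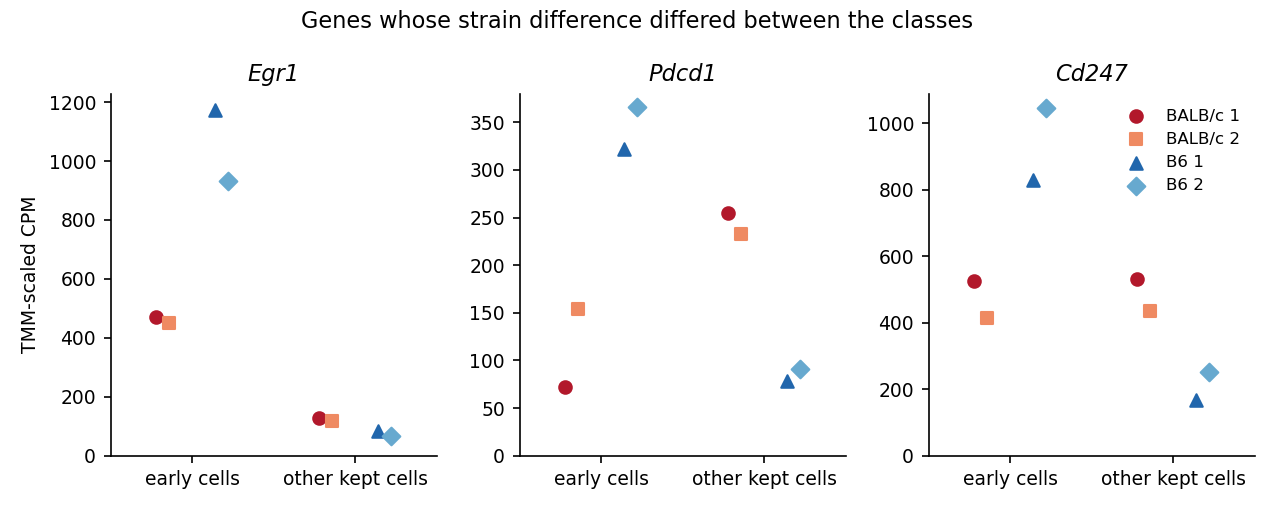
TMM-scaled CPM (linear axis from 0) of Egr1, Pdcd1 and Cd247 in early and other kept cells, with BALB/c libraries left of B6 libraries and 1 point per library. In early cells both BALB/c points lie below both B6 points for each gene, and in the other kept cells above them.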

How the data were processed

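Each library came as the UMI counts the authors deposited, in whole numbers and not normalized, over 32285 genes. Cell Ranger 7.1.0 and the build mm10 are named per the submitters' processing notes; Cell Ranger 6.0.0 or 7.1.0 is given per the file headers. The sources used here do not say whether intronic reads were counted. Barcodes with at least 500 genes, at least 1000 UMIs and at most 10% mitochondrial UMIs were kept. The total of UMIs per library was 23124810 and 22798414 in BALB/c 1 and 2 and 20406245 and 82904358 in B6 1 and 2; early cells held 264379. Shares have exact binomial 95% intervals and were compared by exact permutation over libraries (scipy 1.17.1).

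UMIs were summed per library over early cells and over other kept cells, since cells are not replicates. The test was edgeR 4.0.16's quasi-likelihood test with TMM scaling and filterByExpr (SE is the absolute log2 change over the square root of F). The method was tested on simulated data. Of genes changed 4-fold there, 82.4% were recovered by the strain test and 69.4% by the interaction test. Of genes changed 2-fold, 13.6% and 12.3% were recovered, so most changes of that size were missed. The false calls numbered 1 and 2. Ratios between classes are log2 CPM ratios after adding 0.5 UMI. Doublets were not removed; scanpy 1.11.5's Scrublet was an alternative, as were DESeq2 1.42.0, other size factors, no filter, other thresholds, thinning and each library left out.

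The members, gene lists and tests were chosen with earlier results of these data known. The naming rule took a preset list of thymocyte and iNKT genes, up to 3 lowest p per list and the largest called changes, the 5 lowest p per direction for the interaction, and the 15 most extreme genes per direction between classes at 50 CPM or more, skipping receptor segments, sex-linked and predicted genes throughout. The text names some of these. Replicate numbers do not pair the libraries.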

Additional observations from a re-analysis of the deposited data

Results flagged for a closer look

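The strain difference in early cells and that in the other kept cells differed by the interaction test for 3 genes, each lower in BALB/c early cells and higher in the other kept cells of BALB/c than in those of B6. The difference of log2 changes was -2.91 for Pdcd1, -2.09 for Cd247 and -1.77 for Egr1 (edgeR adjusted p = 0.0224, 0.0224 and 0.0231, 2 libraries per strain). Both BALB/c libraries lay on the same side of both B6 libraries in each class. In early cells 19.3% of the 1398 tested genes were so higher in BALB/c and 18.6% so lower, so such separation is common. No gene was called with the replicate block, in early cells chosen after thinning or with a Cd24a minimum of 4 UMIs. Pdcd1 was not among the tested genes after thinning or with that minimum. Pdcd1 rests on 4 and 13 UMIs in BALB/c 1 and 2 and on 14 and 29 in B6 1 and 2.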

How the results depend on the processing

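The strain difference in the share of early cells kept its direction under every alternative run, with values from 0.250 to 0.944 points, and from 0.292 to 0.583 points with 1 library left out. The difference in Trbv13 use was -4.90 points with calls from 1 UMI, -25.8 points in early cells chosen after thinning and -3.21 to -26.7 points with 1 library left out; that in Trav11 was 0 throughout. The pooled share of Trbv13, Trbv29 and Trbv1 ranged from 24.3 to 38.2%. Genes called between strains in early cells numbered 47 with no filter, 0 with the replicate block (76 at an unadjusted p under 0.05), 0 in early cells chosen after thinning (55 so), and 19 to 56 with 1 library left out. Interaction calls numbered 7 by DESeq2, 30 with no filter, 0 with the replicate block (77 at an unadjusted p under 0.05), 0 after thinning, 0 with a Cd24a minimum of 4 UMIs, and 4 to 32 with 1 library left out. With no filter 10559 genes were tested by edgeR, with 1 library left out 1453 to 2430, and the cause of the changes was not tested. Libraries of the same number did not deviate together (r = -0.05), so the block is no test of pairing. The fit on early cells with a called Trav11 could not be run, because there were none. Of the 30 genes named between early and other kept cells, all kept their direction in early cells chosen otherwise. With sums of 42112 to 84350 UMIs per library, 1 UMI is 11.9 to 23.7 CPM, which limits every low level.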
